A study of Mus musculus with 24 samples.

Results

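The glycoprotein hormone subunit genes of the mouse pituitary are Cga, Tshb, Lhb and Fshb. They were chosen by name: every probe annotated to one of these 4 symbols was taken, whatever its signal, out of 19057 genes with a probe of a single symbol, of which 12027 were measured (detected above background on at least 6 arrays). The samples were pituitary glands of mice aged 8 weeks, each hybridised to its own Illumina bead array, in 4 groups of 6: mutant males, wild-type males, mutant females and wild-type females. The mutants were deficient in Cga, the wild types were littermates, and all came from a Mixed C57Bl6j 129S2SvPas background. The labels give neither the construction of the mutant allele nor the litter of a mouse, so the p-values below rest on the spread between animals within a group.

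Thyrotropin, luteinizing hormone and follicle-stimulating hormone are each a pair of proteins. All 3 share the alpha subunit made from Cga, and each has a beta subunit of its own, made from Tshb, Lhb or Fshb, that gives it its target. Thyrotropes make thyrotropin under thyrotropin-releasing hormone and are held back by thyroid hormone. Gonadotropes make the other two under gonadotropin-releasing hormone, with feedback from sex steroids and, for Fshb, from activin, inhibin and follistatin.

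The array carried 5 probes for the 4 genes. Cga (probe ILMN_2770220), Tshb (ILMN_1215013) and Fshb (ILMN_2598788) had 1 each, and all 3 were detected on all 24 arrays. Lhb had a bright probe (ILMN_2589011), detected on all 24 arrays, and a second one (ILMN_2532420) that was detected on 0 of 24, with raw signals of 75.6 to 99.8. The second probe therefore gave no measurement of Lhb in any group, and all Lhb values below are those of the bright probe. In the annotation of build GRCm38.p6 Cga lies at chr4:34893779-34907374, Tshb at chr3:102777398-102789082, Lhb at chr7:45417608-45421855 and Fshb at chr2:107055986-107059651, and no other annotated gene overlaps any of them.

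The 4 genes are transcribed from separate promoters, and the 150 bases before the start site are shown so that the 1 alpha and 3 beta promoters can be read side by side. The sequences are RefSeq's for GRCm38.p6, 5′ to 3′ on the strand of the gene: chr4:34893629-34893778 on the plus strand, chr3:102782715-102782864 on the minus strand, chr7:45420796-45420945 on the plus strand and chr2:107059652-107059801 on the minus strand. For Tshb and Lhb the start site used lies inside the annotated span of the gene. Capitals mark the letters of 5 motifs searched on both strands of the window from 250 bases before to 50 bases after the start.
Cga: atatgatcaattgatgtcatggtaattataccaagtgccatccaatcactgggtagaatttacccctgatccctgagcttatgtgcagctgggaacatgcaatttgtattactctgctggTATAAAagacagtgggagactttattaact
Tshb: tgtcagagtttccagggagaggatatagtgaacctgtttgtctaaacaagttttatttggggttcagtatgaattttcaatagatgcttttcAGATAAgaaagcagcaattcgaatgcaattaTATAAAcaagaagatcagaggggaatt
Lhb: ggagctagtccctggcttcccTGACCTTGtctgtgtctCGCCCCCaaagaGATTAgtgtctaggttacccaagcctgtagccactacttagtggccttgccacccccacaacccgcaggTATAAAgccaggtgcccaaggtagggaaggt
Fshb: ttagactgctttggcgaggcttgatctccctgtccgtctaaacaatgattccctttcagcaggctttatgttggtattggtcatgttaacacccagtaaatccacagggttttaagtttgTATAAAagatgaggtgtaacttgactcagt

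The TATA box letters TATAAA stood in all 4 windows, beginning at -30 in Cga, -27 in Tshb, -31 in Lhb and -30 in Fshb, and in 13.6% of 32851 windows of the same length. The Tshb window held 3 further matches outside the printed stretch, 2 of which overlapped at its far end. The NR5A1 site TGACCTTG (in 1.56% of windows), the EGR1 core CGCCCCC (16.4%) and the PITX core GATTA (22.0%) were found in the Lhb window alone among the 4, beginning at -129, -112 and -100. NR5A1, EGR1 and PITX1 are known activators of Lhb. The GATA letters AGATAA (11.2% of windows) stood only in the Tshb window, at -58, and GATA2 is a known activator of Tshb. Only exact letters were searched, so a site that differs in a single letter was not counted. The Cga window, for example, held TGTCCTTG outside the printed stretch. These matches describe the letters and do not show binding.

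Each signal was the mean of many beads, with a median of 42 to 44 beads behind a probe. Arrays of a group were alike, with r = 0.987 to 0.994 between an array and the average of the others (log2, over probes). The share of probes detected was 47.1% to 50.8% in mutants, against 39.7% to 43.1% in wild-type males and 43.9% to 46.4% in wild-type females. The raw background split the arrays into 12 lower (77.4 to 88.6) and 12 higher (89.8 to 101.2), with 3 arrays of every group in each set. The sets followed the numbering of the samples: replicates 1 to 3 of every group were lower and 4 to 6 higher.

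Signal was tested after background correction and quantile normalization, on a log2 scale, with limma over all kept probes. Calls used an adjusted p (Benjamini-Hochberg, over every kept probe) below 0.05. Log2 differences are given ± standard error. In males 3 of the 4 subunit genes were called, 1 higher and 2 lower in mutants, beside 51.0% of all measured genes. In females all 4 were called, 2 higher and 2 lower, beside 47.5% of all measured genes. The median difference over the 4 genes was -0.82 in males and 0.26 in females, beside -0.01 and -0.03 over all genes. So many genes were called in both sexes that the number of subunit genes among them is no result. The values below give which subunit moved, which way and how far. Where groups are said not to overlap, the share of all measured genes without overlap was not counted. Lack of overlap therefore does not set the subunit genes apart from other genes.

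Cga, the alpha subunit, had raw signals of 5297 to 7056 (median 6267) in mutant males, against 24795 to 35168 (median 26444) in wild-type males. In mutant females its signal was 4679 to 9520.4 (median 7390.4), against 23670.1 to 32319 (median 27005) in wild-type females. Every mutant lay far below every wild type in both sexes, yet the probe was still detected on all 12 mutant arrays, with brightness ranks of 297 to 641 among the 45281 probes. After normalization Cga was 5.14-fold lower in mutant males (log2 difference -2.36 ± 0.10, adjusted p = 5.4e-16). In females of the mutant the fall was 4.28-fold (log2 difference -2.10 ± 0.10, adjusted p = 5.6e-15). The gene targeted in the mutants thus parted the labelled genotypes on every array. The labels do not say whether the probe lies in the part of the gene that the mutation removes, so the remaining signal says nothing of functional transcript. Among wild types the Cga signal averaged 14.78 ± 0.10 in females and 14.77 ± 0.09 in males (log2, mean ± SD, n = 6 each). The 95% confidence interval for female minus male was -0.21 to 0.21. Under the alternative settings this difference was -0.04 to 0.24 and was never called. Wild-type Cga reached 64.9% to 83.2% of the highest signal of its array. Compression at such brightness was not tested, so like signals do not show like transcript levels. In RNA of the whole gland fewer cells of a type and less RNA per cell cannot be told apart.

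Tshb, the beta subunit of thyrotropin, had raw signals of 27992 to 35698 (median 31724) in mutant males, against 16895 to 24481 (median 20827) in wild-type males. In mutant females it reached 27353 to 36868 (median 30519.5), against 8579 to 17182 (median 13474) in wild-type females. All mutants lay above all wild types of their own sex, and the mutants of both sexes shared the same narrow range. Tshb was 1.41-fold higher in mutant males (log2 difference 0.50 ± 0.11, adjusted p = 0.00034) and 2.12-fold higher in mutant females (1.08 ± 0.11, adjusted p = 4.4e-09). The rise in females exceeded that in males by 0.59 ± 0.15 (adjusted p = 0.0094), and on the raw scale without normalization the folds of the group means were 1.52 in males and 2.31 in females. The difference between the sexes did not pass the test under scaling to the 75th percentile (0.38, adjusted p = 0.12). Mutants averaged 14.89 in males and 14.90 in females (log2), so the 0.59 mirrors the lower signal of wild-type females (-0.58 against wild-type males). Tshb in mutants reached 75.4% to 91.1% of the highest signal of its array. Compression at such brightness was not tested, so a larger response of the transcript in females is not shown.

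Lhb encodes the beta chain of luteinizing hormone. It had raw signals of 6881 to 8922 (median 7680.3) in mutant males, against 12437.5 to 18065 (median 14696) in wild-type males. In mutant females its signal was 3975 to 7157 (median 5843), against 5108 to 7721 (median 6609) in wild-type females. The male genotypes did not overlap, while the raw ranges of the female genotypes did. Lhb was 2.32-fold lower in mutant males (log2 difference -1.22 ± 0.13, adjusted p = 1.0e-08), and the fall in mutant females was 1.48-fold (-0.57 ± 0.13, adjusted p = 0.00063). The fall was smaller in females by 0.65 ± 0.18 (adjusted p = 0.015). Without any normalization the fall in females was -0.24 and was not called (adjusted p = 0.18), and the difference between the sexes was not called under 75th percentile scaling (0.47, adjusted p = 0.093).

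Fshb encodes the beta chain of follicle-stimulating hormone. It moved apart from Lhb, which the same cells make. Its raw signals were 2058 to 3187 (median 2841) in mutant males, against 2159 to 4298 (median 3171.5) in wild-type males, and these ranges overlapped. In mutant females they were 1157 to 2465 (median 2121), against 199 to 1188 (median 459) in wild-type females, where only the dimmest mutant and the brightest wild type met. Fshb was 4.32-fold higher in mutant females (log2 difference 2.11 ± 0.34, adjusted p = 1.3e-05), and the difference was 1.47 and 2.75 within the 12 arrays of lower and of higher raw background, both called. In males the difference was -0.43 ± 0.34 (95% confidence interval -1.13 to 0.27, adjusted p = 0.30). The effect of genotype differed between the sexes by 2.54 ± 0.48 (adjusted p = 0.00090), more than for any of the other 3 subunit genes. When only the 12 male arrays entered the fit, the same male difference of -0.43 had an adjusted p of 0.038. In that fit the error came from the male arrays alone.

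The order of the groups differed from gene to gene. For Cga both wild-type groups stood above both mutant groups. For Tshb the 2 mutant groups, which overlapped, stood above wild-type males and these above wild-type females, with overlap of single arrays between the wild-type sexes. For Lhb wild-type males stood alone at the top, and the other 3 groups followed with overlapping raw ranges. For Fshb the 3 groups of mutant males, wild-type males and mutant females overlapped, and wild-type females stood below them except where their brightest array met the dimmest mutant female.

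**Figure D1:**
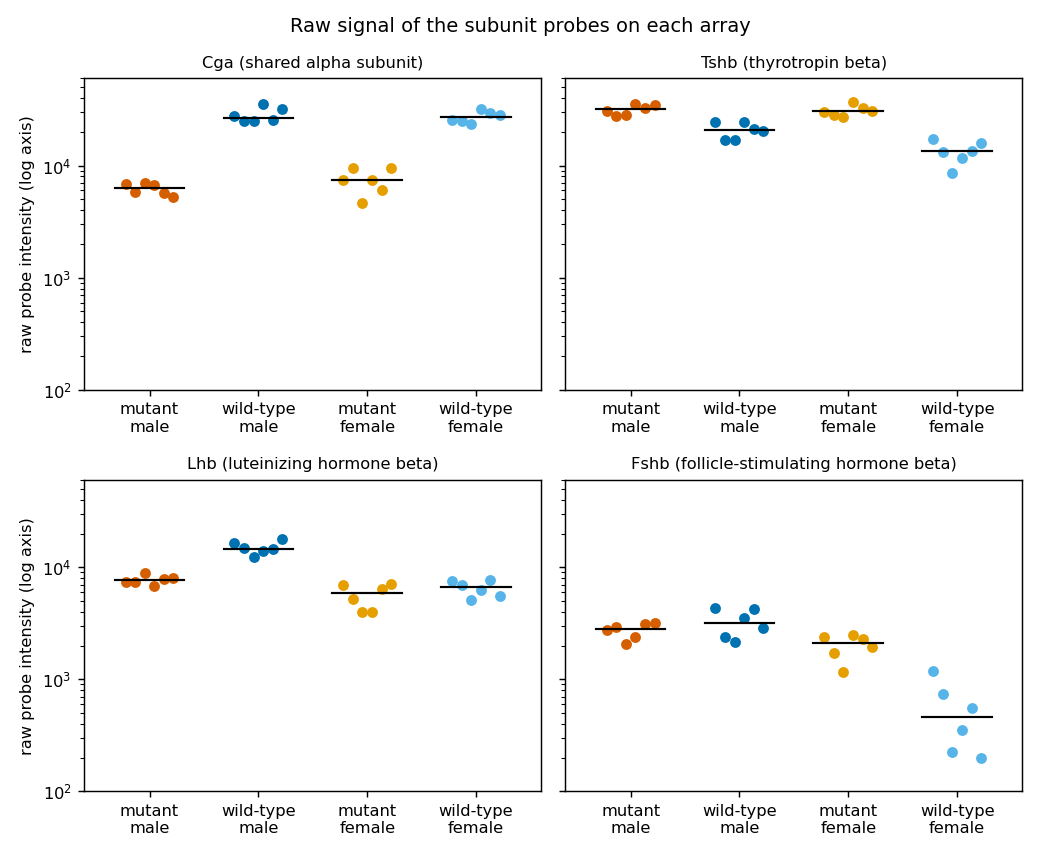
Raw probe intensity (log axis) of Cga, Tshb, Lhb and Fshb on each of the 24 arrays, with 6 arrays per group. Points are arrays and black lines are group medians. Cga is low in both mutant groups, Tshb is high in both, Lhb is highest in wild-type males, and Fshb is low and widely spread in wild-type females.

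Wild-type females differed from wild-type males in 3 of the 4 subunit genes, all 3 lower in females, beside 27.4% of all measured genes called in that comparison. Fshb was 7.84-fold lower in wild-type females, with a log2 difference of -2.97 ± 0.34 (adjusted p = 4.5e-07). Within the 12 arrays of lower and of higher raw background it was -2.25 and -3.69, both called. Lhb was 2.17-fold lower (log2 difference -1.12 ± 0.13, adjusted p = 3.8e-07) and Tshb 1.49-fold lower (-0.58 ± 0.11, adjusted p = 0.00021). No array of either sex overlapped the other for Lhb and Fshb, while the Tshb ranges met. How many of all measured genes were likewise without overlap was not counted. In the same comparison both measured red blood cell markers were lower in wild-type females (Hba-a1 -0.83, adjusted p = 0.038, and Alas2 -1.18, adjusted p = 0.036), and so were 2 of 3 somatotrope markers (Ghrhr -0.70 and Ghsr -0.79). Their part in the subunit values was not tested.

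In mutants limma called 0 of the 4 subunit genes between females and males at this threshold, beside 0.0665% of all measured genes (8 genes called, and 727 with an unadjusted p under 0.05). At an unadjusted p under 0.05 there were 2, Cga (0.27 ± 0.10, higher in females) and Lhb (-0.47 ± 0.13, lower in females). Under 36 alternative settings of this limma test the adjusted p was below 0.05 for none of the 4. Tshb averaged 14.90 ± 0.08 in mutant females and 14.89 ± 0.05 in mutant males (log2), with a 95% confidence interval for the difference of -0.21 to 0.23. Both mutant groups stand near the top of the signal range for Tshb, where compression was not tested, so this interval covers the signal only. For Fshb the interval was -1.13 to 0.27, which does not reach the sex difference of wild types (-2.97). The sex difference in signal was smaller in size in mutants than in wild types for Tshb, Lhb and Fshb. That contrast is the same quantity as the difference of the genotype effects between the sexes, for which 3 of 4 subunit genes were called beside 13.9% of all measured genes. Cga was not called (0.26 ± 0.15, adjusted p = 0.22).

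**Figure D2:**
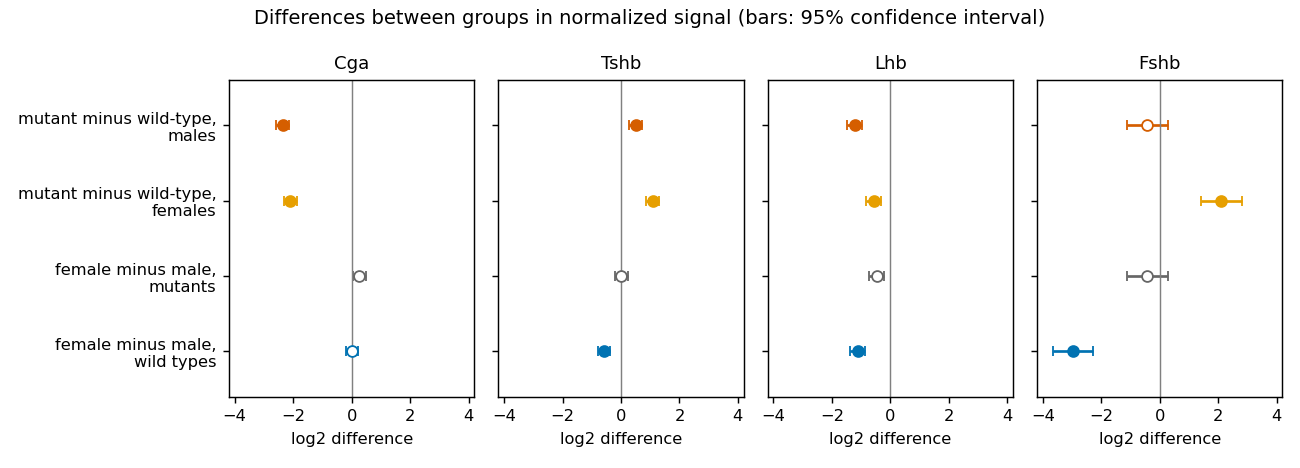
Log2 differences in normalized signal between groups for each subunit gene (points) with 95% confidence intervals (bars) from the limma fit of 6 arrays per group. Filled points passed an adjusted p of 0.05. Tshb, Lhb and Fshb differ between the sexes in wild types (lowest line of each panel), and no gene passed the test in mutants.

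Within the sets of 12 arrays of lower and of higher raw background, the Tshb response differed between the sexes by 0.53 and 0.64 (adjusted p = 0.28 and 0.12) and the Lhb response by 0.54 and 0.76 (adjusted p = 0.28 and 0.16). The Fshb response differed by 1.80 and 3.28 (adjusted p = 0.19 and 0.0092), so that of these 6 values only the last was called, with 3 arrays per group. The directions were those of the full data. Entering the set as a block left all 20 calls on the subunit genes on the same side of the threshold.

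Animals of a group agreed closely for Cga, Tshb and Lhb, with coefficients of variation of the raw signal between 9.02% and 25.6%. Fshb in wild-type females was the exception at 69.2%, with the brightest array 5.97 times the dimmest. The 6 animals had raw Fshb signals of 1188, 744, 223, 356, 561 and 199, and the probe was detected in each. The bead-to-bead standard error of these signals had a median of 5.94%, which covers the beads of an array and not labelling, hybridisation or dissection.

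Because Tshb and Cga are among the brightest probes, their place in the signal range was examined. The highest raw signal of any probe was 32859 to 46271, and it differed from array to array. Tshb reached 79.3% to 87.1% of its array's highest signal in mutant males, against 45.0% to 64.9% in wild-type males. In mutant females it reached 75.4% to 91.1%, against 25.6% to 45.9% in wild-type females. The brightest probe stood 1.10-fold to 1.33-fold above Tshb in mutant females and 2.18-fold to 3.91-fold above it in wild-type females. Cga stood at 13.4% to 20.5% in mutant males, against 64.9% to 83.2% in wild-type males, and at 13.8% to 25.9% in mutant females, against 67.6% to 81.1% in wild-type females. Lhb reached at most 47.2%, in wild-type males, and Fshb at most 11.5%, also in wild-type males.

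Between 17 and 38 probes per array lay above 75% of the highest signal. The relative spread between the beads of a probe was also compared. For Tshb in mutant males its median was 24.8%, beside 24.8% for the 200 probes nearest in brightness, and for Cga in wild-type males it was 23.1%, beside 25.0%. These 200 probes are themselves among the brightest of the array, so a like spread cannot show whether signals are compressed. How far signals this near the top of the range are compressed was not tested, and it bears on the folds of Tshb and Cga. Lhb and Fshb were measured farther below the top.

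**Figure D3:**
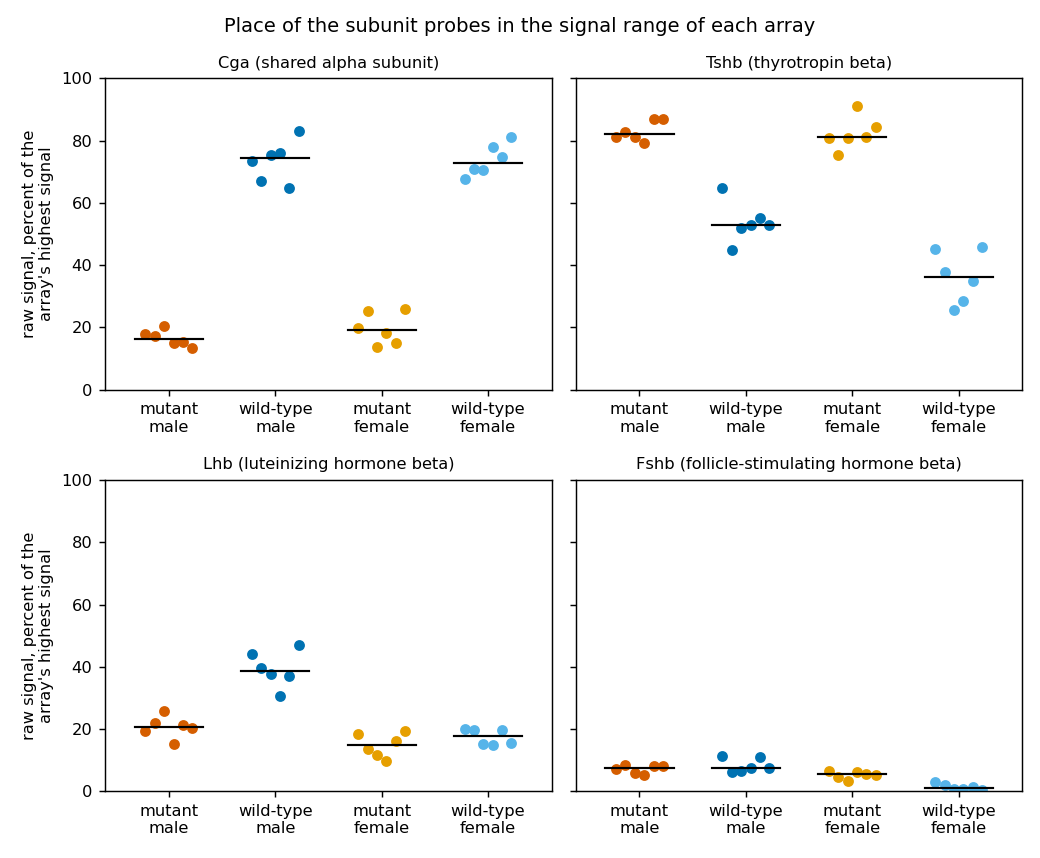
Raw signal of each subunit probe as a percentage of the highest raw signal on the same array, for 6 arrays per group (points) with group medians (black lines). Tshb in both mutant groups and Cga in both wild-type groups lie between 64.9% and 91.1%, while Fshb stays at or under 11.5%.

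The balance of subunits was followed as the log2 difference between 2 probes on the same array. Such a difference is no ratio of transcripts, since probes bind with different strength, so only its change between groups was tested, with a two-sided exact permutation test of 6 against 6 arrays (smallest p possible 0.00216) and Benjamini-Hochberg adjustment over 24 tests. Alpha fell against each of the 3 beta subunits in both sexes. Cga minus Tshb averaged -2.48 ± 0.18 in mutant males and 0.38 ± 0.13 in wild-type males (SD, n = 6 each), and -2.22 ± 0.33 in mutant females and 0.96 ± 0.33 in wild-type females. The change was -2.86 in males and -3.18 in females (exact permutation p = 0.00216 each, adjusted p = 0.0037). This was a 7.25-fold and a 9.07-fold shift in signal toward the thyrotropin beta subunit. Cga alone changed by -2.36 in males and -2.10 in females, so much of the shift restates the fall of the targeted gene. Tshb in mutants and Cga in wild types were also so bright that compression, which was not tested, could alter these folds.

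Against Lhb the change of the alpha signal was -1.15 in males and -1.53 in females, and against Fshb it was -1.93 in males and -4.21 in females (exact permutation p = 0.00216 and adjusted p = 0.0037 for each of the 4). No mutant array overlapped a wild-type array of its sex in any of these pairs. Each of these changes includes the fall of Cga, the targeted gene, so the 4 tests do not stand apart from that fall. Cga minus Fshb averaged 1.89 ± 0.43 in mutant females and 6.10 ± 1.28 in wild-type females (SD, n = 6 each), an 18.5-fold shift. In wild types every alpha-to-beta difference was higher in females than in males, by 0.58 for Tshb, 1.12 for Lhb and 2.97 for Fshb (exact permutation p = 0.00216, adjusted p = 0.0037 each). Each change was close to the sex difference of the beta gene alone, with its sign turned.

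Among the beta subunits Tshb gained on Lhb by 1.71 in males and 1.65 in females (exact permutation p = 0.00216, adjusted p = 0.0037 each), with no overlap of mutant and wild-type arrays. Tshb gained on Fshb in males by 0.93 (exact permutation p = 0.00216, adjusted p = 0.0037). In females the change was -1.03, toward Fshb, with overlapping arrays (exact permutation p = 0.052, adjusted p = 0.057). The 2 gonadotropin beta subunits shifted against each other in both sexes toward Fshb. Lhb minus Fshb averaged 1.52 ± 0.31 in mutant males and 2.30 ± 0.43 in wild-type males, a change of -0.79 (exact permutation p = 0.0087, adjusted p = 0.012), with overlap. It averaged 1.48 ± 0.40 in mutant females and 4.15 ± 1.06 in wild-type females (SD, n = 6 each), a change of -2.68 without overlap (exact permutation p = 0.00216, adjusted p = 0.0037).

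Between mutant females and mutant males 4 of the 6 balances changed. No single subunit gene was called there, but those p-values were adjusted over every kept probe and the balances over the balance tests alone. Before adjustment the limma p was 0.00097 for Lhb, 0.015 for Cga, 0.22 for Fshb and 0.92 for Tshb. The contrast in calls therefore does not show that balances changed where single genes did not. Cga minus Lhb was higher in mutant females by 0.74 (exact permutation p = 0.0043, adjusted p = 0.0065) and Cga minus Fshb by 0.70 (exact permutation p = 0.024, adjusted p = 0.027). Tshb minus Lhb was higher by 0.48 (exact permutation p = 0.013, adjusted p = 0.016) and Tshb minus Fshb by 0.44 (exact permutation p = 0.024, adjusted p = 0.027). The arrays of the sexes overlapped in all 4. Cga minus Tshb changed by 0.26 (exact permutation p = 0.134, adjusted p = 0.14) and Lhb minus Fshb by -0.04 (exact permutation p = 0.85, adjusted p = 0.85). The calls against Fshb were each lost in 6 of 12 cases with 1 array left out.

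**Figure D4:**
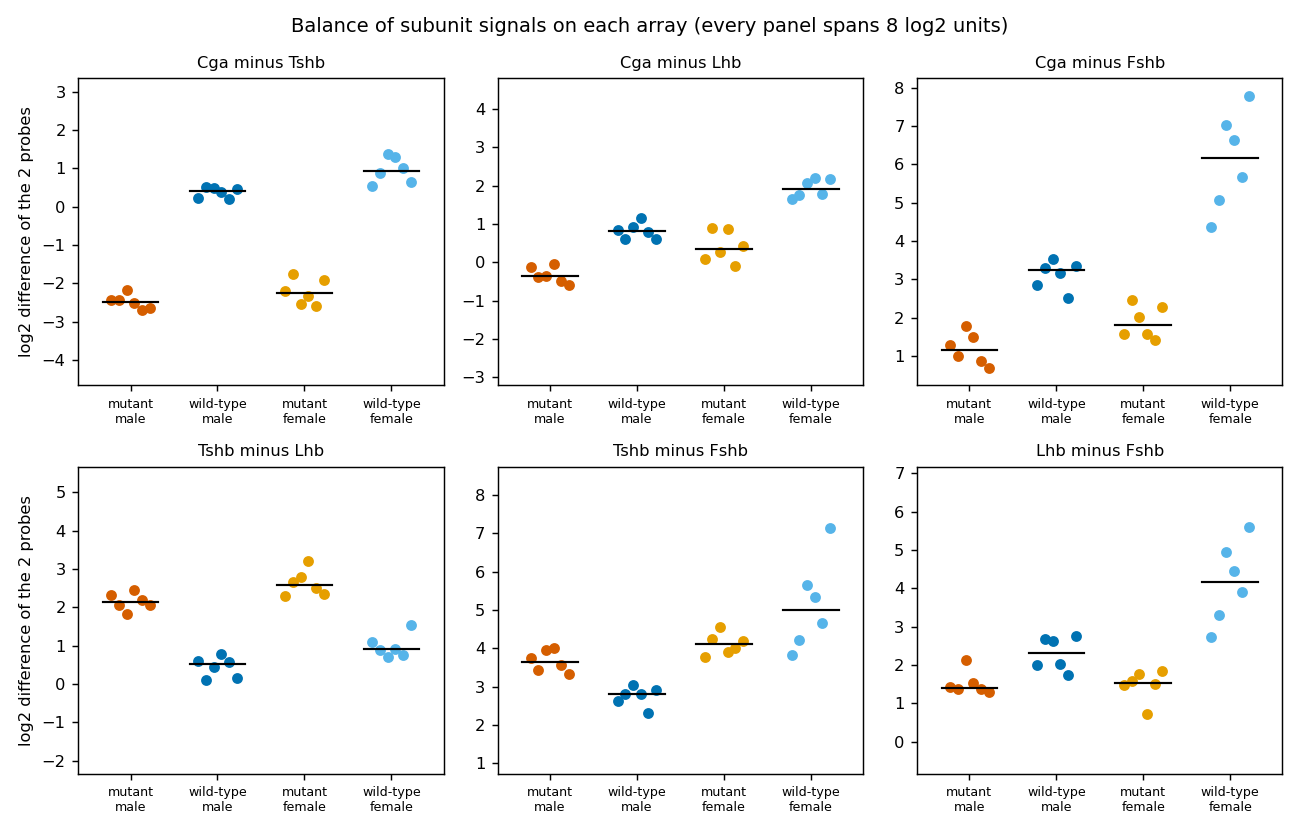
Log2 difference of normalized signal between the probes of 2 subunit genes on the same array, for all 6 pairs, 6 arrays per group (points) with group medians (black lines). The zero of an axis has no meaning, and every panel spans 8 log2 units. The alpha signal is lower against each beta in both mutant groups, and Lhb minus Fshb is highest in wild-type females.

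Within a group of 6 animals the 4 genes gave 24 pairwise relations, and none passed Benjamini-Hochberg adjustment. The lowest p was for Lhb and Fshb in wild-type females (Pearson's r = 0.94, exact permutation p = 0.011, adjusted p = 0.27, and Spearman's rho = 0.94, exact permutation p = 0.017, adjusted p = 0.40), where r was 0.92 without the 2 animals farthest from the median. In the same animals Cga ran against Lhb (r = -0.90, exact permutation p = 0.031, adjusted p = 0.27, and rho = -0.77, exact permutation p = 0.10, adjusted p = 0.49), with r = -0.95 without 2 animals. In mutant females Lhb and Fshb had r = -0.01 (exact permutation p = 0.99, adjusted p = 0.99) and rho = 0.31 (exact permutation p = 0.56, adjusted p = 1.0), with r = 0.64 without 2 animals.

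The genes whose signal ran most like each subunit were taken over the 24 arrays, which share the 4 group means, so that these values describe a common group pattern. For Cga they were Add2 (r = 0.98), Cgnl1 (0.97) and Syt9 (0.97), and for Tshb Kcnmb4 (0.96), Gch1 (0.95) and Erc2 (0.95). For Lhb they were Aff1 (0.94), Tgfbr3l (0.93) and Glipr2 (0.91), and for Fshb Unc13c (0.85), Cyth3 (0.84) and Slc27a2 (0.84). After subtraction of the group means the closest were Ing2 (0.80), Prrt3 (0.77) and Lmtk3 (0.76) for Cga and Dner (0.82), Rin2 (0.78) and Irgm1 (0.75) for Tshb. They were Trappc6a (0.79), Ccser2 (0.79) and Kdf1 (0.75) for Lhb and Ppp2r3c (0.71), Dstn (0.71) and Mccc2 (0.71) for Fshb. No gene appeared in both lists of a subunit. Of the 24 names, 15 were the same with the values the authors deposited as processed.

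Of the other 2 glycoprotein hormone subunit genes, which form thyrostimulin, Gpha2 was higher in mutants of both sexes (0.83 ± 0.14 in males, adjusted p = 1.9e-05, and 0.93 ± 0.14 in females, adjusted p = 4.8e-06), at 7.10 ± 0.28 in mutant males and 6.27 ± 0.23 in wild-type males. Gphb5 was detected on at most 3 of the 6 arrays of any group and was not called (-0.28 in males and -0.11 in females). Of the receptors for the finished hormones, Tshr and Fshr were detected on 0 of 24 arrays, and Lhcgr had no probe with its symbol.

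Receptors that act on the subunit genes were listed as 17 genes, of which 14 were measured. In mutant males 3 were higher and 5 lower, and in mutant females 3 were higher and 7 lower, where 51.0% of all measured genes were called in males and 47.5% in females. The median difference over the 14 was 0.02 in males and -0.34 in females, beside -0.01 and -0.03 over all genes. Trhr, the receptor through which thyrotropin-releasing hormone drives Tshb, averaged 11.04 ± 0.25 in mutant males and 6.51 ± 0.37 in wild-type males (log2, n = 6 each). It averaged 11.40 ± 0.21 in mutant females and 6.44 ± 0.42 in wild-type females. It rose by 4.53 ± 0.17 in males (adjusted p = 4.6e-17) and by 4.95 ± 0.17 in females (adjusted p = 6.7e-18). Rxrg, a retinoid X receptor known from thyrotropes, also rose (0.32 in males, adjusted p = 0.017, and 0.93 in females, adjusted p = 1.0e-07).

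Thrb, the thyroid hormone receptor that mediates repression of Tshb and Cga, was called higher in males (6.26 ± 0.35 in mutant males and 5.08 ± 0.33 in wild-type males, adjusted p = 2.6e-05) and measured -0.33 in females (adjusted p = 0.19). The effects differed between the sexes (adjusted p = 0.00093), with no size given, since only 1 of 6 wild-type male arrays detected it. Thra was called higher in females (adjusted p = 0.0075), at 5.27 ± 0.22 on mutant arrays, 4 of 6 of which detected it, and 4.84 ± 0.26 on wild-type arrays, 0 of 6 of which did. It was not called with 75th percentile scaling (0.18, adjusted p = 0.26). The receptors that fell included Esr1, the oestrogen receptor of the pituitary (-2.05 ± 0.17 in males, adjusted p = 1.3e-10, and -2.66 ± 0.17 in females, adjusted p = 9.3e-13), and the somatostatin receptor Sstr5 (-2.67 ± 0.14 and -1.10 ± 0.14, adjusted p = 3.2e-14 and 5.7e-07). Sstr5 was detected on 3 of 6 mutant male arrays, and its other kept probe gave smaller falls, also called, in both sexes. Pgr, the progesterone receptor, was lower in females (-1.34, adjusted p = 8.8e-08), where it was detected on 3 of 6 mutant and 6 of 6 wild-type arrays. Gnrhr, the receptor for gonadotropin-releasing hormone that drives Lhb and Fshb, was chosen for mention after its values were seen: it averaged 9.01 ± 0.63 in mutant males and 10.44 ± 0.38 in wild-type males, and 8.57 ± 0.50 in mutant females and 10.22 ± 0.55 in wild-type females (adjusted p = 9.5e-05 and 1.9e-05). It thus fell in both sexes, as Lhb did, while Fshb rose in females. None of the other measured gonadotrope markers, given below, was called lower in either sex.

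Transcription factors of the subunit genes were listed as 21, of which 16 were measured. In males 5 were higher and 4 lower in mutants, and in females 4 were higher and 3 lower, beside 51.0% and 47.5% of all measured genes called, with medians of 0.19 and 0.24 beside -0.01 and -0.03 over all genes. Gata2, which with Pou1f1 activates Tshb, rose by 0.83 ± 0.19 in males (adjusted p = 0.00084) and by 2.21 ± 0.19 in females (adjusted p = 6.3e-10), a difference between the sexes of 1.38 (adjusted p = 0.0015). It averaged 12.02 ± 0.41 in mutant females and 9.81 ± 0.50 in wild-type females, and 11.88 ± 0.12 in mutant males and 11.05 ± 0.31 in wild-type males. Isl1, a LIM homeodomain factor of thyrotropes and gonadotropes, rose by 1.25 ± 0.12 and 1.59 ± 0.12 (adjusted p = 3.2e-09 and 4.8e-11).

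Lhx3, a LIM homeodomain factor that activates Cga, was lower in mutants, at -0.88 ± 0.10 in males (adjusted p = 3.7e-08) and -0.85 ± 0.10 in females (adjusted p = 8.7e-08), and its 4 further kept probes were called lower too. Smad3, which carries the activin signal to Fshb, fell in both sexes (-0.84 ± 0.13 and -0.75 ± 0.13, adjusted p = 7.6e-06 and 4.3e-05). Smaller falls were called for Eya3 (-0.42, adjusted p = 0.041) and Creb1 (-0.37, adjusted p = 0.047) in males and Msx1 (-0.22, adjusted p = 0.039) in females, and another probe of Eya3 and of Creb1 was called higher in males. All 3 lost the call when some single arrays were left out, and Msx1 turned to 0.045 without normalization.

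The activin, inhibin, follistatin and BMP genes, which set Fshb apart from Lhb in the normal pituitary, were 15, of which 10 were measured. In males 2 were higher and 5 lower in mutants, and in females 3 were higher and 2 lower, beside 51.0% and 47.5% of all measured genes called, with medians of -0.32 and 0.04 beside -0.01 and -0.03 over all genes. Inhba, the activin A subunit, fell in males by 0.64 ± 0.14 (adjusted p = 0.00044) and measured 0.03 in females (adjusted p = 0.90), a difference between the sexes of 0.66 (adjusted p = 0.024). Fstl3, a follistatin-like protein that binds activin, fell in both, at -0.54 ± 0.17 in males (adjusted p = 0.0096) and -0.98 ± 0.17 in females (adjusted p = 3.3e-05). Acvr2a, an activin receptor, was called higher in mutants of both sexes (adjusted p = 0.047 in males and 0.0080 in females), but in neither under 75th percentile scaling. It was not well above background on any wild-type male array (5.41 ± 0.23 in mutant males and 5.08 ± 0.11 in wild-type males). Bmp4 rose by 1.06 ± 0.16 and 1.04 ± 0.16 (adjusted p = 5.1e-06 and 8.3e-06). Bmp6 was called lower in males (adjusted p = 0.016), with no size given, since 1 of 6 mutant and 2 of 6 wild-type arrays detected it. In females it was at least 1.22-fold lower (adjusted p = 0.0011), at 4.92 ± 0.13 in mutants and 5.48 ± 0.27 in wild types. There 0 of 6 mutant and 3 of 6 wild-type arrays detected it. Follistatin itself (Fst) was detected on 0 of 24 arrays.

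Genes that finish the glycans of these hormones were 11, of which 10 were measured. In males 4 were higher and 4 lower in mutants, and in females 3 were higher and 4 lower, beside 51.0% and 47.5% of all measured genes called, with medians of -0.06 and -0.19 beside -0.01 and -0.03 over all genes. The 2 sulfotransferases that can sulfate the terminal N-acetylgalactosamine of these hormones moved in opposite directions. Chst9 averaged 8.07 ± 0.22 in mutant males and was not well above background on any of the 6 wild-type male arrays (4.86 ± 0.08), so that it was at least 5.42-fold higher in mutant males (adjusted p = 2.4e-15). It averaged 8.36 ± 0.39 in mutant females and was called higher there too (adjusted p = 8.4e-16), with no fold given, since only 1 of 6 wild-type female arrays detected it. Chst8, the enzyme known from gonadotropes, fell in both sexes, at -0.91 ± 0.20 in males (adjusted p = 0.00057) and -2.53 ± 0.20 in females (adjusted p = 1.4e-10), with a difference between the sexes of -1.61 (adjusted p = 0.00056). It averaged 10.23 ± 0.53 in mutant females and 12.76 ± 0.28 in wild-type females, and 10.23 ± 0.46 in mutant males and 11.15 ± 0.15 in wild-type males.

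The sialyltransferase gene St6gal1 fell in both sexes, at -1.05 ± 0.13 in males (adjusted p = 1.9e-07) and -1.63 ± 0.13 in females (adjusted p = 9.4e-11), and its other kept probe was called lower in females but not in males. St3gal6, of another linkage, rose by 0.94 ± 0.09 and 0.82 ± 0.09 (adjusted p = 6.0e-09 and 8.1e-08). Mgat5, a branching enzyme, went opposite ways in the sexes, at -0.85 ± 0.20 in males (adjusted p = 0.0010) and 0.77 ± 0.20 in females (adjusted p = 0.0028), with a difference of 1.63 (adjusted p = 0.00047).

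**Figure D5:**
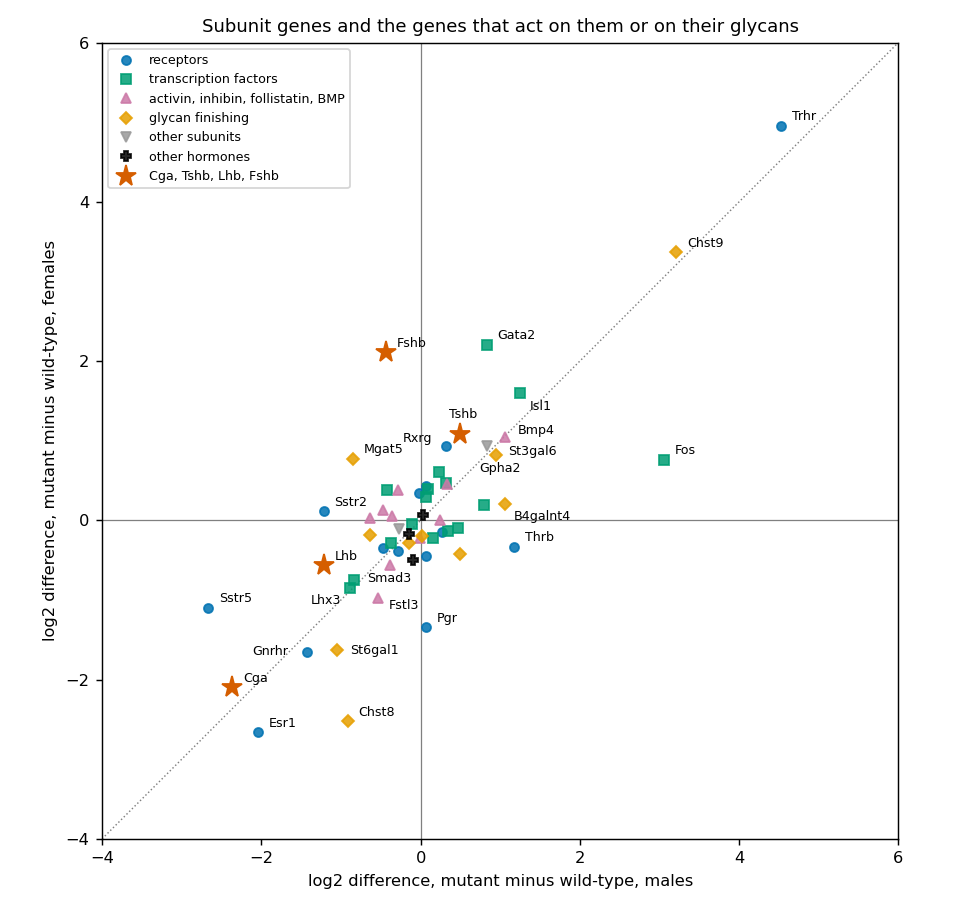
Log2 difference of mutant minus wild-type in females against that in males (6 arrays per group) for the 4 subunit genes (stars) and for the measured genes of the 6 role lists (other symbols). The dotted line marks equal differences, and names are given for called genes beyond 0.8 in either sex. Trhr and Chst9 lie far above 0 in both sexes, Cga and Esr1 far below, and Fshb lies at -0.43 in males and 2.11 in females.

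Markers of the pituitary cell types were also compared between genotypes. All 4 measured thyrotrope markers of 5 listed were higher in mutants of both sexes (Trhr, Dio2, Gata2 and Isl1), with a summed normalized signal of 8200.2 to 10596 in mutant males, against 2562 to 4141 in wild-type males, and of 8809 to 14189 in mutant females, against 1734 to 2588 in wild-type females. Of 5 measured gonadotrope markers of 6 listed, 1 was higher and 1 lower in males and 3 were higher and 1 lower in females, and their summed signals overlapped between genotypes (8358 to 13808 in mutant males, against 4107 to 11352 in wild-type males, and 7650 to 13343 in mutant females, against 3239 to 15113 in wild-type females). The brightest of these markers were Egr1, an immediate early gene (SD up to 1.26 on the log2 scale), and Gata2, which also stands in the thyrotrope list. The sum therefore says little of the dimmer markers. Of these Gnrhr was lower in both sexes. Nr5a1 (0.47, adjusted p = 0.0067, with its other kept probe not called) and Foxl2 (0.61, adjusted p = 0.0035) were higher in females, and neither was called in males. Posterior lobe markers summed to 243 to 484 in mutant males, against 502 to 738 in wild-type males, and to 193 to 403 in mutant females, against 576 to 817 in wild-type females, with Oxt the 1 of 4 called. Both measured macrophage markers of 4 listed were higher in mutants, summing to 413 to 627 in mutant males, against 195 to 276 in wild-type males, and to 398 to 564 in mutant females, against 221 to 294 in wild-type females. The part of these shifts in the subunit results was not tested. The pars tuberalis, the other site of Tshb expression, was not visible by its markers Mtnr1a and Tshr, which were detected on 0 of 24 arrays, and its 2 measured markers Eya3 and Cck summed to 122 to 278 over mutants and 130 to 237 over wild types.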

How the data were processed

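Total RNA of 24 mouse pituitaries (8 weeks, 6 per group) was hybridised to Illumina bead arrays. The deposited table holds raw mean bead intensities, bead numbers and bead standard errors with a detection p-value per probe, exported by the authors with GenomeStudio 2011.1, per the submitters' processing notes. A second deposited table holds intensities the authors had processed. Its values are linear, and the normalization behind them is not stated in the labels. Background correction and quantile normalization of these raw values used neqc of limma 3.58.1 in R 4.3.3 (offset 16) and put on the log2 scale. Of 45281 probes, 23133 with a detection p under 0.05 on at least 6 arrays were kept. A gene was represented by its brightest kept probe (12027 genes). Array annotation gave 1 symbol for 34885 probes, several for 18 and none for 10378. Of the annotated probes 34807 matched RefSeq.

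The 4 group means were fitted with lmFit and eBayes, with 1 spread per probe shared by the groups, and p-values were adjusted over all kept probes. Balance between subunits used exact permutation tests in Python 3.11.15 with scipy 1.17.1. Subunit genes, gene lists and their tests were chosen with earlier results of these data known. Named from each list were up to 4 genes with the smallest adjusted p, and those called against the majority. Arrays of one group had no shared litter or batch label. Alternatives covered scaling, background, filter, the authors' values, the raw background set and each array left out.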

Additional observations from a re-analysis of the deposited data

Results flagged for a closer look

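The effect of genotype on signal differed between females and males for 3 subunit genes, by the limma test of the difference itself. It differed for Tshb by 0.59, Lhb by 0.65 and Fshb by 2.54 (log2, females minus males, adjusted p = 0.0094, 0.015 and 0.00090). Tshb in mutants of both sexes was so bright that compression, which was not tested, could bear on the 0.59.

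Of 60 groups of 6 arrays checked for a single array far from the rest, 3 had a gap above Dixon's limit, where chance gives about 1 in 20. In mutant males, replicate 3 had an Lhb minus Fshb difference of 2.12, above its group. In mutant females, replicate 4 had an Lhb minus Fshb difference of 0.71, below its group. In wild-type females, replicate 3 had a raw signal of 75.6 for the second Lhb probe, which was not detected on any array.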

How the results depend on the processing

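Of 236 values for the subunit genes under alternatives that kept all replicates or 1 background set, 225 kept their direction and side of the threshold, and so did all 480 with 1 array left out. With 75th percentile scaling the difference between the sexes was 0.38 for Tshb (adjusted p = 0.12) and 0.47 for Lhb (0.093). Without normalization Lhb in females was -0.24 (0.18). With only the male arrays fitted, Fshb in males, at -0.43, passed (0.038). Within the 12 arrays of lower background the sex differences in response were 0.53 for Tshb, 0.54 for Lhb and 1.80 for Fshb, and Tshb in wild types (female minus male) was -0.51 (0.057). Within the 12 of higher background they were 0.64 for Tshb and 0.76 for Lhb, and Lhb in females was -0.55 (0.060). None of these passed, with 3 arrays per group.

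The Tshb minus Fshb change in females passed without normalization (-0.88) and with 75th percentile scaling (-1.17). With 1 array left out it lay between -1.29 and -0.63, and passed without wild-type female replicate 1 (-1.29, adjusted p = 0.016) or 2 (-1.21, 0.043). In mutants (female minus male) Cga minus Fshb lay between 0.58 and 0.81 and Tshb minus Fshb between 0.35 and 0.51, each losing its call in 6 of 12 cases. Among list genes 1 value reversed, Msx1 in females at 0.045 without normalization.

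Genes called within the lower and higher background sets numbered 3832 and 4019 in males (6130 over all arrays), 3425 and 3527 in females (5710), 163 and 298 for the difference (1670), and 1384 and 958 between wild-type sexes (3291). Between mutant sexes 8 genes were called, against 3 in each set, 3 without normalization, 2 with only those groups fitted and 1 with probes detected on all arrays. Without normalization the split became 4063 higher and 767 lower in females (2692 and 3018 after it), 1129 and 124 for the difference (895 and 775), and 230 and 3971 between wild-type sexes (1502 and 1789), where the median of all genes moved to 0.18, 0.17 and -0.20. With 75th percentile scaling the last was 1815 and 1417. The causes were not tested.

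No paired analysis was possible because the labels number no replicates and tie no animals across groups. Numbers given in sample order split at 3 and 4 into the raw background sets, which were fitted as a block and changed no call on the subunit genes. Using another Lhb probe for the balance was not run, since the second probe was never above background. Dim probes near background and Tshb and Cga near the top of the range limit what these folds can show.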

Other observations

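The other hormone genes stood near the top of the signal range too, with mean raw signals of 23628 to 33849.5 by group, so that small differences there do not show stable transcript levels. Gh averaged 14.87 ± 0.05 in mutant males and 15.02 ± 0.08 in wild-type males, and 14.87 ± 0.10 in mutant females and 15.05 ± 0.06 in wild-type females (log2, mean ± SD, n = 6 each), and was called lower in females (-0.17, limma adjusted p = 0.034). Prl, the lactotrope hormone, was called lower in females (-0.50 ± 0.15, adjusted p = 0.0074), with -0.10 in males (adjusted p = 0.59). Pomc, the precursor of corticotropin, measured 0.03 in males (adjusted p = 0.78) and 0.06 in females (adjusted p = 0.57).

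Among 3 measured somatotrope markers, 2 were lower in mutant males and 3 in mutant females. Ghrhr, which makes somatotropes respond to the hypothalamus, was lower by both tests, at -1.54 ± 0.17 in males (adjusted p = 2.2e-08) and -1.14 ± 0.17 in females (adjusted p = 3.7e-06). Of 3 lactotrope markers 1 was lower in males and 3 in females, and of 3 corticotrope markers 0 passed in males and 1 was lower in females. Of 3 folliculostellate markers 1 was lower in each sex. Of 4 endothelial markers 2 were higher and 1 lower in males, and 3 were higher and 1 lower in females. Neither of 2 measured red blood cell markers passed between genotypes in either sex, and no hypothalamic marker was measured.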
